A study of Mus musculus with 9 samples.

Results

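The 10 mature miRNAs described here are ones that laboratories commonly pick as reference miRNAs in qPCR: mmu-miR-191-5p, mmu-miR-425-5p, mmu-miR-103-3p, mmu-miR-107-3p, mmu-miR-423-5p, mmu-miR-423-3p, mmu-miR-186-5p, mmu-miR-361-5p, mmu-miR-320-3p and mmu-miR-484. They were taken by name from small RNA sequencing tables that list 1915 mature miRNAs, 932 of them with at least 1 count and 304 of them expressed (more than 32 counts in at least 1 library). All 10 passed that filter in both groups. The libraries came from the tibialis anterior (TA) muscle of 4 control mice injected with 100 µl of PBS and 5 mice bearing tumors of Lewis Lung Carcinoma (LLC), a mouse lung carcinoma cell line that brings on cachexia, the wasting of muscle and fat. The tumor-bearing mice received 750000 cells in each flank and were studied 22 days later. The sample labels name C57BL/6J mice of 10 weeks, whereas the series design names male C57BL/10 mice of 8 weeks, and the values here cannot settle which holds. The labels name no transgene or allele in either group. The control mice are called C1 to C4 and the LLC mice L1, L2, L3, L5 and L6. The authors took out another LLC library, L4, which was not analysed here.

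A miRNA is cut from a hairpin transcript and guides Argonaute to mRNAs that match its seed, bases 2 to 8 from its 5′ end. In qPCR, the amount of a miRNA is read against a reference miRNA in the same RNA, so any change of the reference enters the result with the opposite sign. A good reference therefore varies little between animals and does not differ between the groups compared. A few very abundant miRNAs, led by miR-22-3p and miR-10b-5p, took much of these libraries, and a share of reads that one of them gains is lost to the rest when counts are divided by library totals. Most of the 10 reference miRNAs are encoded in introns of protein-coding genes, and miR-320-3p and miR-484 are known for hairpins that skip the nuclear Drosha cut.

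The mature sequences show which of these miRNAs could be mistaken for each other in sequencing or qPCR. Sequences from RefSeq (GRCm38.p6) were matched by name for 9 of the 10, all but miR-320-3p, and each is printed with its seed in capitals:
mmu-miR-191-5p: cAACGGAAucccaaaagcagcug
mmu-miR-425-5p: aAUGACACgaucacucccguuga
mmu-miR-103-3p: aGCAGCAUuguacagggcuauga
mmu-miR-107-3p: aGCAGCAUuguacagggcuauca
mmu-miR-423-5p: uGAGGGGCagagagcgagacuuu
mmu-miR-423-3p: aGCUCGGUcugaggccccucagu
mmu-miR-186-5p: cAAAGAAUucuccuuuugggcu
mmu-miR-361-5p: uUAUCAGAaucuccagggguac
mmu-miR-484: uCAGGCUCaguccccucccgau

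The 9 sequences carry 8 distinct seeds, because miR-103-3p and miR-107-3p share theirs. These paralogs differ by 1 substitution, G22C from miR-103-3p to miR-107-3p, with positions counted from 1 at the 5′ end of the 23 bases. Their first 21 bases are identical, so a read that ends before position 22 matches both, and the authors kept all best alignments of a read. The values of this pair are therefore uncertain as separate measurements. The sequences are 22 or 23 bases long, so CPM (read counts scaled to a common library total) of different members differ little for length, although adapters ligate to some small RNAs better than to others and a CPM is not a number of molecules.

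By the GENCODE annotation of GRCm38, the hairpins of miR-191-5p and miR-425-5p are neighbors on chromosome 9. Mir191 spans 108568319 to 108568392 and Mir425 spans 108568777 to 108568861, both on the plus strand and 384 bp apart, and both lie within an exon of the long noncoding RNA 4833445I07Rik, with another annotated miRNA gene, Gm24083, over Mir191 on the opposite strand. Both miR-423 arms come from 1 hairpin, Mir423, in an intron of Nsrp1 on chromosome 11 (77078064 to 77078172, minus strand). The miR-103 and miR-107 hairpins sit in introns of 3 pantothenate kinase genes, the enzymes that start coenzyme A synthesis: Mir103-1 in Pank3 on chromosome 11 (35782396 to 35782481), Mir103-2 in Pank2 on chromosome 2 (131288052 to 131288137) and Mir107 in Pank1 on chromosome 19 (34820687 to 34820773, minus strand). Mir186 lies in an intron of the splicing factor gene Zranb2 on chromosome 3 (157544279 to 157544349), and Mir361 in an intron of Chm, a Rab escort protein gene, on chromosome X (113074824 to 113074893, minus strand). Mir320 is intergenic on chromosome 14 (70443510 to 70443591). Mir484 on chromosome 16 (14159626 to 14159692) lies over an exon of Marf1 that runs on the opposite strand.

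The control libraries held 4992339 to 6548379 counts each and the LLC libraries 6216566 to 7833161. Of these, the 10 reference miRNAs together took 1.76 to 2.45% in control mice and 1.89 to 3.40% in LLC mice. Each had at least 206 counts in every library. Counting error alone, taken as Poisson, would give an SD of log2 counts of 0.0042 for miR-191-5p, 0.011 for miR-186-5p and 0.024 for miR-103-3p. It would give 0.044 to 0.081 for the other 7, which is not small beside the lowest spreads between mice given below. In the order of their mean CPM after TMM scaling (factors that centre most miRNAs of each library on the others), miR-191-5p stood at 20953 CPM, miR-186-5p at 2542 CPM and miR-103-3p at 572 CPM. They were followed by miR-423-3p with 178 CPM, and then by miR-361-5p with 97.0 CPM, miR-107-3p with 96.6 CPM, miR-320-3p with 90.5 CPM and miR-425-5p with 87.0 CPM, neighbors in that order that lay within their spread of each other. The least abundant were miR-484 with 65.5 CPM and miR-423-5p with 51.8 CPM. Among the 304 expressed miRNAs, miR-191-5p was 13th in abundance and miR-186-5p 25th, while miR-22-3p and miR-10b-5p stood first, at 197854 and 190239 CPM.

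miR-191-5p, the most abundant reference, had 11657, 12135, 21556 and 20404 CPM in C1 to C4 after TMM scaling, and 29116, 22046, 17314, 40769 and 13585 CPM in L1, L2, L3, L5 and L6. The groups overlapped: L1, L2 and L5 lay above every control mouse, while L3 and L6 fell among them. Its mean was 16438 ± 5269 CPM in control mice (SD, n = 4) and 24566 ± 10756 CPM in LLC mice (SD, n = 5). The quasi-likelihood fit of edgeR gave a log2-fold change of 0.58 with a standard error (SE) of 0.283 and a Benjamini-Hochberg adjusted p of 0.296. An exact permutation of the mice, two-sided, gave p = 0.198, so the groups did not differ beyond their spread. Without L5 the log2-fold change was 0.32.

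miR-425-5p, made from the neighboring hairpin, had 89.5, 94.3, 82.5 and 81.8 CPM in the control mice and 97.6, 86.0, 92.2, 67.9 and 91.0 CPM in the LLC mice after TMM scaling. Only L5 fell below all control mice and only L1 rose above them. Its group means were 87.0 ± 5.97 CPM and 86.9 ± 11.4 CPM (SD, n = 4 and n = 5). Although the hairpins are 384 bp apart, the ratio of miR-191-5p to miR-425-5p, which needs no scaling, ran from 129 in C2 and 130 in C1 to 600.4 in L5. The other mice lay between, from 149 in L6 to 298 in L1, so the ratio was spread widely within each group.

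miR-186-5p, the second most abundant, had 2414, 2257, 2813 and 2598 CPM in the control mice and 2569, 2926, 2502, 2727 and 2070 CPM in the LLC mice. These groups overlapped almost completely, at 2521 ± 239 CPM and 2559 ± 319 CPM (SD, n = 4 and n = 5). miR-103-3p, which is known to repress Dicer and caveolin-1, had 596, 561, 561 and 486 CPM in the control mice and 658, 531, 601, 523 and 627 CPM in the LLC mice. L1, L3 and L6 lay above the highest control mouse, and L5 and L2 lay within the control range. Its paralog miR-107-3p had 105, 106, 99.2 and 84.4 CPM against 100.0, 90.2, 107.2, 80.3 and 97.6 CPM, with the LLC mice scattered around the control values.

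The arms of Mir423 were read separately. The 3p arm had 238, 183, 163 and 192 CPM in the control mice and 145, 163, 173, 121 and 228 CPM in the LLC mice, with L1 and L5 below every control mouse. The 5p arm had 56.7, 54.0, 47.5 and 40.7 CPM and 51.0, 45.9, 57.0, 54.3 and 58.7 CPM, with L3 and L6 at the top of the range. The ratio of the 3p to the 5p arm was 3.93 ± 0.641 in control mice and 3.10 ± 0.644 in LLC mice (SD, n = 4 and n = 5; two-sided exact permutation test, p = 0.111, adjusted p = 0.649 over the 45 pairs of members). It was lowest in L5, at 2.22, and highest in C4, at 4.71.

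miR-484, encoded against Marf1, had 85.2, 73.0, 55.1 and 80.6 CPM in the control mice and 38.5, 71.5, 71.7, 52.3 and 61.8 CPM in the LLC mice. L1 and L5 lay below the lowest control mouse, and no LLC mouse lay above the highest. Its mean was 73.5 ± 13.3 CPM against 59.2 ± 14.1 CPM (SD, n = 4 and n = 5), and edgeR's log2-fold change was -0.31 (SE 0.183, adjusted p = 0.344). Without L1 it was -0.19. The difference stayed within the spread of the mice by an exact two-sided permutation test (p = 0.167). The other Drosha-independent hairpin gave miR-320-3p, with 93.3, 84.9, 94.7 and 83.0 CPM in the control mice and 84.4, 90.9, 92.5, 109 and 82.4 CPM in the LLC mice. Its SD of log2 CPM over the 9 mice, 0.13, was the smallest of the 10. miR-361-5p had 84.9 to 108 CPM in the control mice and 78.1 to 111 CPM in the LLC mice, again with overlapping groups.

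**Figure D1:**
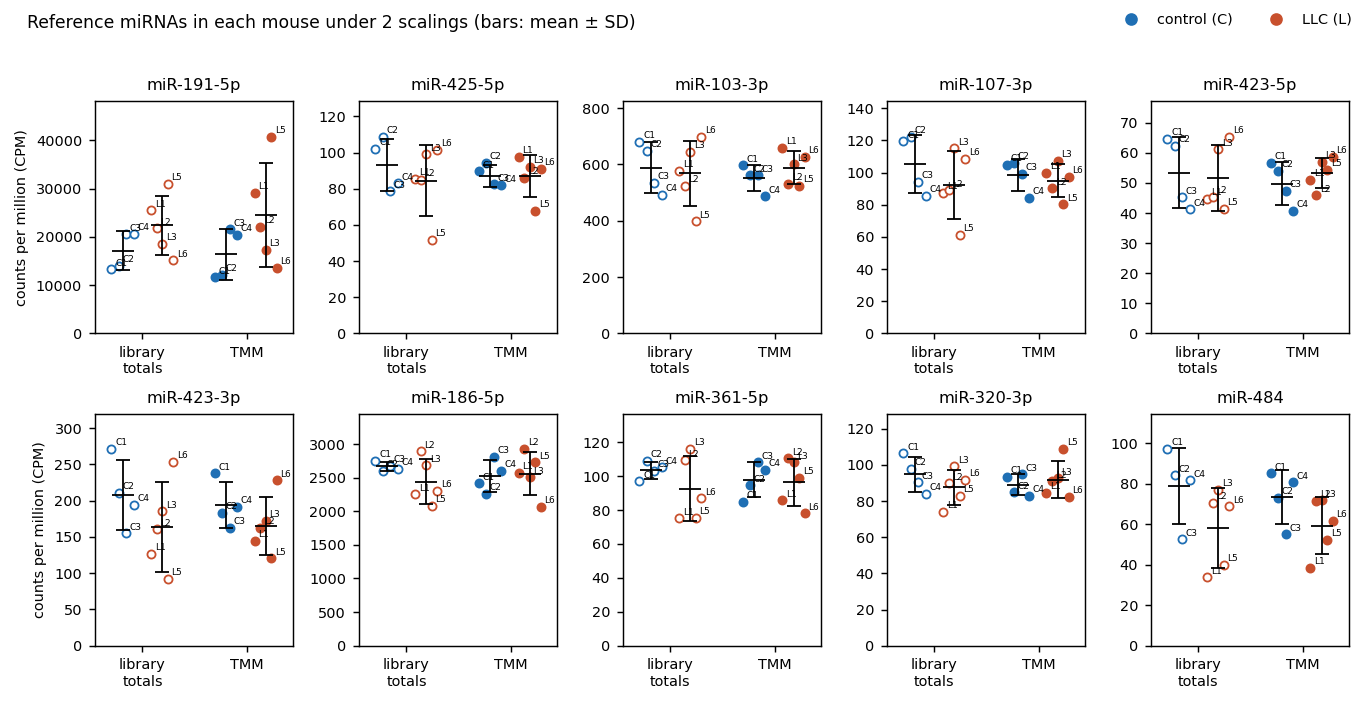
CPM (vertical axes, starting at 0) of the 10 reference miRNAs in each of 4 control (blue, C) and 5 LLC mice (red, L), scaled by library totals (open points) or with TMM factors (filled points); horizontal bars with whiskers are group means ± SD. The groups overlap for every miRNA under both scalings, and miR-191-5p spans the widest range after TMM scaling, from 11657 CPM in C1 to 40769 CPM in L5.

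The first question was whether any reference differed between the groups. In edgeR's test over the 304 expressed miRNAs, 0 of the 10 were called (an adjusted p up to 0.05 with a change of 1.5-fold or more), beside 0% of all expressed miRNAs, and 0.296 was the smallest adjusted p among the 10. At an unadjusted p up to 0.05, 0 of the 10 passed, beside 50 of the 304 (16.4%). The log2-fold changes of the 10 had a median of 0.01, beside -0.02 over all expressed miRNAs, with 5 higher and 5 lower. DESeq2 on the same miRNAs called 7 in all and 0 of the 10, with 0 of the 10 at an unadjusted p up to 0.05. Over all 21 alternatives in scaling, filter, tool and mice, 7 had 1 or 2 of the 10 at an unadjusted p up to 0.05 in edgeR's test. miR-191-5p passed in all 7, with p from 0.000145 with no filter to 0.0487 with RLE factors, among them upper-quartile factors (0.0199) and the fits without C3 (0.0372), L3 (0.0295) or L6 (0.0125). miR-484 passed only without C3 (0.0430) and miR-423-3p only without L6 (0.0319). Among all miRNAs tested in these fits, 42 to 74 of 299 to 304 passed the same threshold, and 91 of 932 with no filter. When every miRNA with a count was tested, edgeR called 22 of 932, among them miR-191-5p at an adjusted p of 0.00899; over all alternatives its adjusted p ranged from 0.00899 to 0.706.

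The size of change that these 9 mice allow is given by the intervals. For 8 of the 10 miRNAs the 95% interval of edgeR's fold change lay within 1.5-fold of no change in both directions. The narrowest was that of miR-103-3p, from 0.91 to 1.26-fold, and those of miR-425-5p (0.83 to 1.21), miR-186-5p (0.85 to 1.21), miR-320-3p (0.86 to 1.23), miR-361-5p (0.81 to 1.20) and miR-107-3p (0.80 to 1.16) were similar. The intervals of miR-423-5p, from 0.88 to 1.31-fold, and of miR-423-3p, from 0.67 to 1.09-fold, were wider, the latter only just inside the limit. The exceptions were miR-191-5p, whose interval reached from 0.98 to 2.27-fold, and miR-484, whose interval reached from 0.62 to 1.06-fold. For these 2 miRNAs the interval held both no change and a change of more than 1.5-fold. Under the other edgeR and limma settings, 6 to 9 of the 10 lay within the limit, with the lowest count under library totals alone. miR-423-3p lay outside it in 11 of these 20 settings, among them scaling by the 10 members, limma with voom, library totals and the fits without C2, C3, C4, L2, L3 or L6. miR-484 lay inside it in 3, with upper-quartile factors, with no filter and without L1. The intervals with no filter rest on the 6524 degrees of freedom of that fit. miR-107-3p lay outside it in 1, library totals, and miR-191-5p in all 20. The other 6 lay inside it in all 20.

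In exact permutation tests of log2 CPM over every split of the 9 mice into 4 and 5, the smallest p among the 10 was 0.167 both after TMM scaling and under library totals, where the smallest possible was 0.00794. The groups did not overlap for 0 of the 10 under either scaling, beside 5.92% of the expressed miRNAs after TMM scaling and 1.64% under library totals. These shares of the 304 make 0 of 10 an unremarkable count. In whole muscle, less RNA per cell and fewer cells of a type cannot be told apart. The mice of a group are separate animals by the labels, so the permutation p-values set the group difference against the spread between animals. Those of edgeR do so with a spread estimated in part from all miRNAs tested.

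The direction of the differences depended on the scaling. Divided by library totals alone, 9 of the 10 references were lower in the LLC group, and miR-191-5p was the exception. The median log2-fold change under library totals was -0.13 for the 10 and -0.17 for all 304 expressed miRNAs, a shift of the whole table, and relative to it the 10 lay in the middle as they did after TMM scaling. In some of the mice most references moved together. In C1, C2 and L3, 9 of the 10 lay above their own mean under library totals, and in L5, 9 of the 10 lay below it, by a median of 0.52 on the log2 scale over the members other than miR-191-5p. miR-191-5p moved the opposite way in each of these 4, at -0.54 in C1, -0.47 in C2, -0.06 in L3 and 0.68 in L5. L1 had 8 below and L6 had 7 above, whereas C3, C4 and L2 were mixed, with 4, 5 and 4 of the 10 above their mean.

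After TMM scaling, the median deviation of the 9 members other than miR-191-5p shrank from 0.26 to 0.07 in C1 and from -0.52 to -0.12 in L5, whereas miR-191-5p moved further from its mean, to -0.73 in C1 and 1.07 in L5. The TMM factor of L5 was 0.762, the lowest of the 9, and C1 and C2 had the highest, 1.14 and 1.15. In L5 the 5 most abundant miRNAs of the table held 68.5% of the counts, beside 53.9 to 61.0% in the other 8 libraries. These 5 include miR-486a-5p and miR-486b-5p, which have equal counts in every library. With that pair counted once, the share was 65.8% in L5 and 50.9 to 57.9% in the others. The part of these dominant miRNAs in the deviations of the references was not tested.

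**Figure D2:**
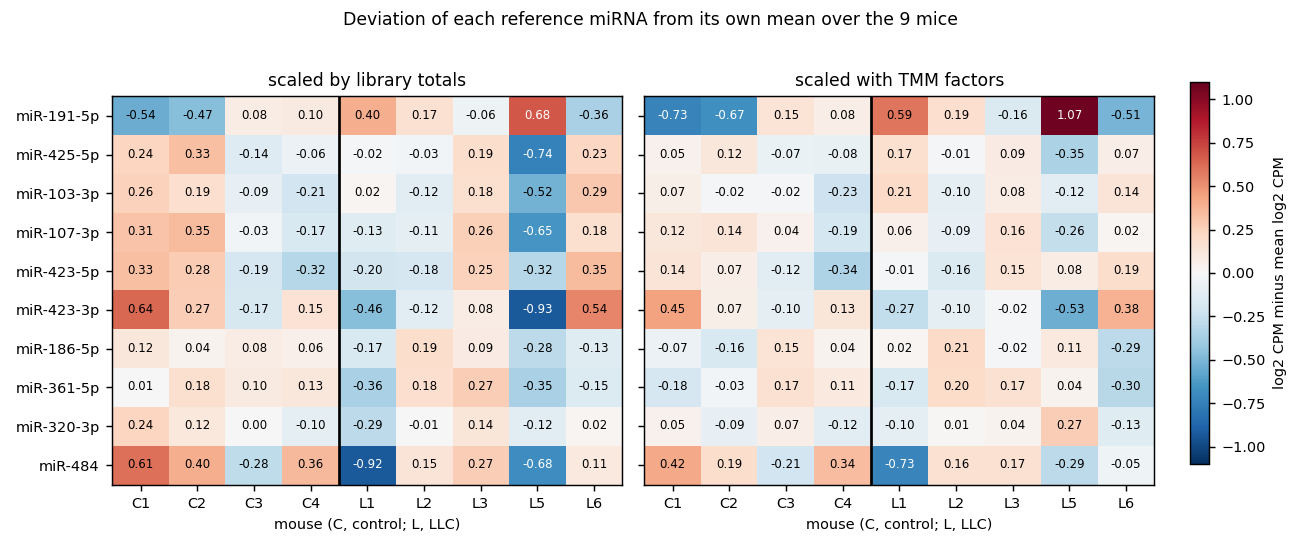
Deviation of log2 CPM from the miRNA's mean over the 9 mice (color and printed value) for each reference miRNA (rows) and mouse (columns, control C1 to C4 left of the line, LLC mice to its right), under library totals (left) and TMM scaling (right). In L5, 9 of 10 rows are negative under library totals and the median of the 9 rows other than miR-191-5p shrinks from -0.52 to -0.12 with TMM, while miR-191-5p reaches 1.07.

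The spread between mice was compared with that of all expressed miRNAs, as a description. Over the 9 mice, the SD of log2 CPM after TMM scaling had a median of 0.17 for the 10 references. The median was 0.28 for all 304 expressed miRNAs and 0.20 for the 135 that were at least as abundant as the least abundant reference, miR-423-5p. Under library totals the corresponding medians were 0.30, 0.34 and, over 136 miRNAs, 0.31. For 9 of the 10 the SD was lower after TMM scaling than under library totals, with miR-191-5p as the exception.

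Among the 135 miRNAs of at least that abundance, miR-320-3p had the 11th lowest SD (0.13), miR-103-3p the 14th (0.14), miR-107-3p the 19th (0.15), miR-425-5p the 26th (0.16) and miR-186-5p the 29th (0.16). miR-423-5p (0.17) and miR-361-5p (0.18) were 47th and 55th. Further up were miR-423-3p, 113th with an SD of 0.31, and miR-484, 119th with 0.36. miR-191-5p was 133rd of 135, with an SD of 0.60. The places depended on the scaling. Under library totals miR-191-5p was 109th of 136, with an SD of 0.40, below miR-423-3p (129th, 0.49) and miR-484 (130th, 0.52). miR-103-3p was then 47th (0.26), miR-107-3p 73rd (0.32) and miR-425-5p 77th (0.32), while miR-320-3p (0.16) and miR-186-5p (0.16) were 11th and 12th. miR-423-5p and miR-361-5p stood at 56th (0.29) and 39th (0.23). miR-320-3p was thus 11th under both scalings, and miR-191-5p, miR-423-3p and miR-484 were in the upper part of the order under both.

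Within groups, the SD of log2 CPM after TMM scaling was larger in the LLC group than in the control group for 9 of the 10 references and for 220 of all 304 expressed miRNAs (72.4%), so a wider spread in the LLC group was common to the table. The exception was miR-423-5p, at 0.21 in control and 0.14 in LLC mice. Under library totals miR-186-5p and miR-361-5p were tight in the control group, with SDs of 0.035 and 0.071, and looser in the LLC group, with 0.20 and 0.29. No test of these spreads was made.

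**Figure D3:**
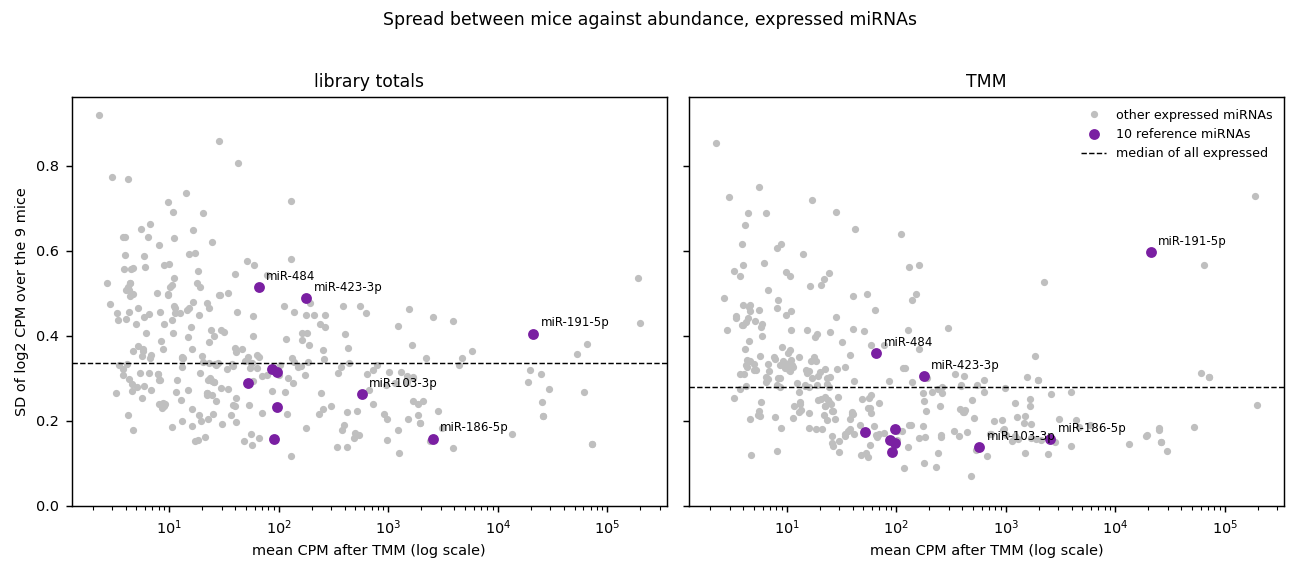
SD of log2 CPM over the 9 mice (vertical axis) against mean CPM after TMM scaling (log axis) for the 304 expressed miRNAs (grey) with the 10 references in purple, under library totals (left) and TMM (right); the dashed line is the median of all expressed miRNAs. With TMM, 7 references lie between 0.13 and 0.18, below the median of 0.28, and miR-484 (0.36), miR-423-3p (0.31) and miR-191-5p (0.60) lie above it.

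Ratios of 2 references within a library need no scaling factor. For each of the 45 pairs the log2 ratio of counts was compared between the groups, and in two-sided exact permutation tests the smallest p was 0.0714, with an adjusted p of 0.649 over the 45. In 0 of 45 pairs the groups failed to overlap. The pair with the smallest p was miR-103-3p and miR-107-3p, with a count ratio of 5.60 ± 0.211 in control mice and 6.20 ± 0.432 in LLC mice (SD, n = 4 and n = 5), 5.29 to 5.76 against 5.60 to 6.58. The largest difference was that of miR-191-5p to miR-484, 0.86 on the log2 scale, and the 9 pairs with miR-191-5p had a median absolute difference of 0.54, beside 0.12 over the other 36.

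The steadiest ratio over the 9 mice was that of miR-425-5p to miR-107-3p, with an SD of 0.09 on the log2 scale and ratios from 0.83 to 0.98, although their hairpins lie on different chromosomes. Counting error alone would give this ratio an SD of 0.086, so at these counts its spread is little more than counting error. miR-103-3p kept a steady ratio to both, with SDs of 0.11 to miR-107-3p and 0.12 to miR-425-5p. A further set that kept together was miR-186-5p, miR-361-5p and miR-320-3p, with SDs of 0.12 for miR-186-5p to miR-361-5p, 0.14 for miR-186-5p to miR-320-3p and 0.18 for miR-361-5p to miR-320-3p. For these 5 ratios counting error alone would give 0.059 to 0.084. miR-423-5p was in neither set. Its SDs were 0.13 to miR-103-3p, 0.16 to miR-107-3p and 0.21 to miR-425-5p. In the other set it was at 0.19 to miR-320-3p, but at 0.30 to miR-186-5p and 0.31 to miR-361-5p. Both sets were read off the values and got no test. Between the sets the SDs were larger, from 0.21 for miR-103-3p to miR-320-3p up to 0.29 for miR-103-3p to miR-361-5p. The arms of Mir423 had an SD of 0.32, so 2 products of 1 hairpin tracked each other less than miR-425-5p and miR-107-3p did.

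The mean SD of a member's log2 ratios to the other 9, the M value that qPCR laboratories use to order references (lower is steadier), was 0.27 for miR-107-3p, 0.28 for miR-103-3p, 0.28 for miR-320-3p and 0.29 for miR-425-5p. It was 0.30 for miR-186-5p, 0.30 for miR-423-5p and 0.31 for miR-361-5p. The high end held miR-423-3p at 0.40, miR-484 at 0.44 and miR-191-5p at 0.68. With each mouse left out in turn miR-191-5p stayed last in all 9 cases and miR-423-3p and miR-484 stayed 8th or 9th. The first places changed hands, since miR-107-3p ranked from 1st to 3rd, miR-103-3p and miR-320-3p from 1st to 4th and miR-425-5p from 2nd to 5th, so these 4 cannot be ordered by their spread. Reads that miR-103-3p and miR-107-3p may share enter this measure, and their part was not tested. With miR-107-3p left out, miR-320-3p had the lowest M value, 0.29. Dropping the least steady member step by step removed miR-191-5p, miR-484, miR-423-3p, miR-361-5p, miR-186-5p, miR-320-3p, miR-423-5p and miR-103-3p, and the mean M value went from 0.35 with 10 members to 0.27 with 9 and 0.09 with the last pair.

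**Figure D4:**
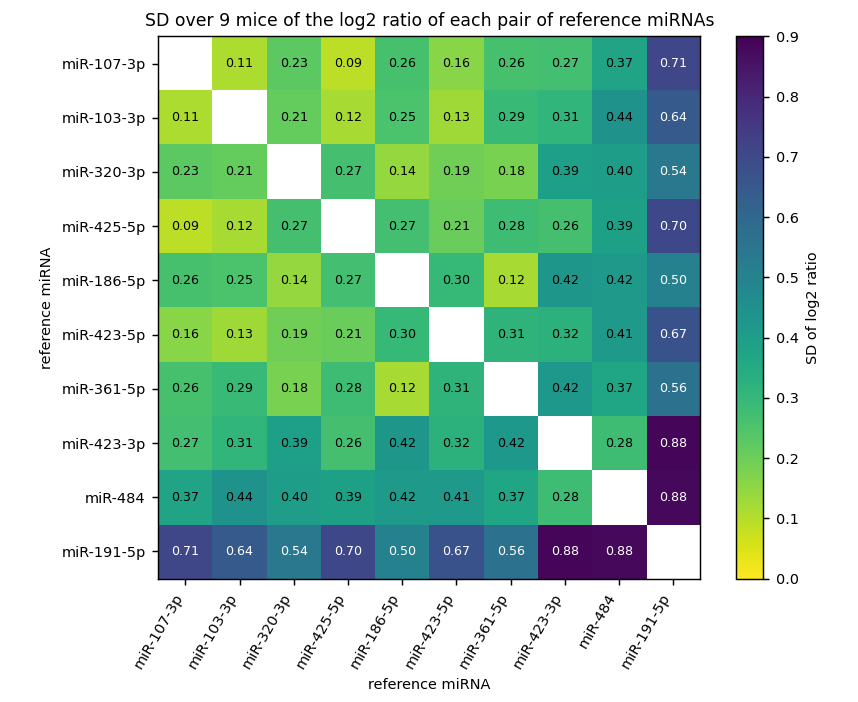
SD over the 9 mice of the log2 ratio of counts for each pair of reference miRNAs (color and printed value), with rows and columns ordered by M value from the steadiest at the top left. The lowest value is 0.09 for miR-425-5p and miR-107-3p, and the row of miR-191-5p runs from 0.50 to 0.88.

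The members were also read together. The geometric mean of the 10 had a mean log2 CPM of 7.99 in control and 8.00 in LLC mice after TMM scaling, a difference of 0.01, with an SD over the 9 mice of 0.04. A mean of 10 varies less than its members by construction, and TMM factors centre most miRNAs of each library. A small difference and a small SD after TMM scaling are thus partly built in, and the value describes the set and not any member. Used as a scaling factor, the 10 references stayed within -0.05 and 0.07 of the TMM factor on the log2 scale in every mouse. Without miR-191-5p, an alternative chosen after its values were seen, the difference was -0.05 and the SD 0.08. Under library totals the geometric mean of the 10 was lower in the LLC group by a log2 difference of -0.14, with an SD of 0.20, the same side as the whole table.

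The expressed miRNAs whose counts stayed closest to the geometric mean of the 10, by the SD of the log2 ratio over the 9 mice, were miR-22-5p (0.07), miR-378a-5p (0.08), miR-28a-5p (0.11), miR-500-3p (0.11) and miR-21a-3p (0.11). Over all expressed miRNAs this SD had a median of 0.28. miR-378a-5p comes from an intron of Ppargc1b, a coactivator of mitochondrial genes, and had a log2-fold change of -0.0017 (SE 0.098, adjusted p of 0.998 by edgeR) at 483 CPM. miR-22-5p had 0.09 (SE 0.103, adjusted p = 0.630) at 230 CPM. Of the references themselves, miR-320-3p was the closest, at 0.11, and miR-191-5p the farthest, at 0.60, each against a mean that contains it.

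miR-191-5p was followed by a set of other miRNAs, chosen here after its values were seen. The steadiest ratios to miR-191-5p over the 9 mice were those of miR-10a-5p (SD 0.12), miR-10b-5p (0.17), miR-1943-5p (0.17), miR-99b-5p (0.18) and miR-342-3p (0.20), whereas the median over all expressed miRNAs was 0.67. miR-10a-5p, encoded in a Hox gene cluster, had 37509, 43963, 62089 and 62061 CPM in C1 to C4 and 82634, 76652, 50388, 129205 and 41475 CPM in L1, L2, L3, L5 and L6. L5 was the highest mouse and C1 the lowest for miR-10a-5p, as for miR-191-5p. miR-99b-5p, at a lower level, ran from 1357 CPM in L6 and 1488 CPM in C1 to 4220 CPM in L5. None of the 5 passed the adjusted threshold in the edgeR test, with log2-fold changes of 0.44 to 0.69. miR-10a-5p and miR-10b-5p are among the 5 most abundant miRNAs.

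To show what the choice of a reference does to a result, 5 miRNAs were read against each of the 10 within libraries. The choice moves the difference of each by the same amount, since the reference enters every ratio. miR-29b-3p, which represses collagen mRNAs, miR-223-3p, a miRNA of myeloid cells, miR-10b-5p and miR-133a-3p were named by the study on these samples, so their direction is no independent evidence. miR-29b-3p was higher in the LLC group by 0.17 on the log2 scale when read against miR-191-5p, by 0.59 to 1.02 against the other 9 and by 0.68 against the geometric mean of the 10. Of the 10 references, the groups stopped overlapping only against miR-423-3p and miR-186-5p, and they did so against the geometric means too. In CPM the groups of miR-29b-3p did not overlap after TMM scaling or under library totals, beside 5.92% and 1.64% of the expressed miRNAs. Those of miR-223-3p did not overlap after TMM scaling but did under library totals. miR-223-3p ran from 0.14 against miR-191-5p to 1.00 against miR-484, without overlap against miR-423-3p, miR-320-3p and miR-484 or against the geometric means (0.66 for that of the 10).

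miR-10b-5p was higher by 0.05 when read against miR-191-5p and by 0.48 to 0.91 against the others, with overlapping groups each time. For the muscle-fibre miRNA miR-133a-3p the sign depended on the reference: it was -0.64 against miR-191-5p, 0.14 against miR-423-3p and 0.22 against miR-484, and between -0.22 and -0.05 against the other 7. miR-486a-5p, which is muscle-enriched, was at -0.33 against miR-191-5p and at 0.09 to 0.53 against the other 9. The groups overlapped for both of these miRNAs with every reference.

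**Figure D5:**
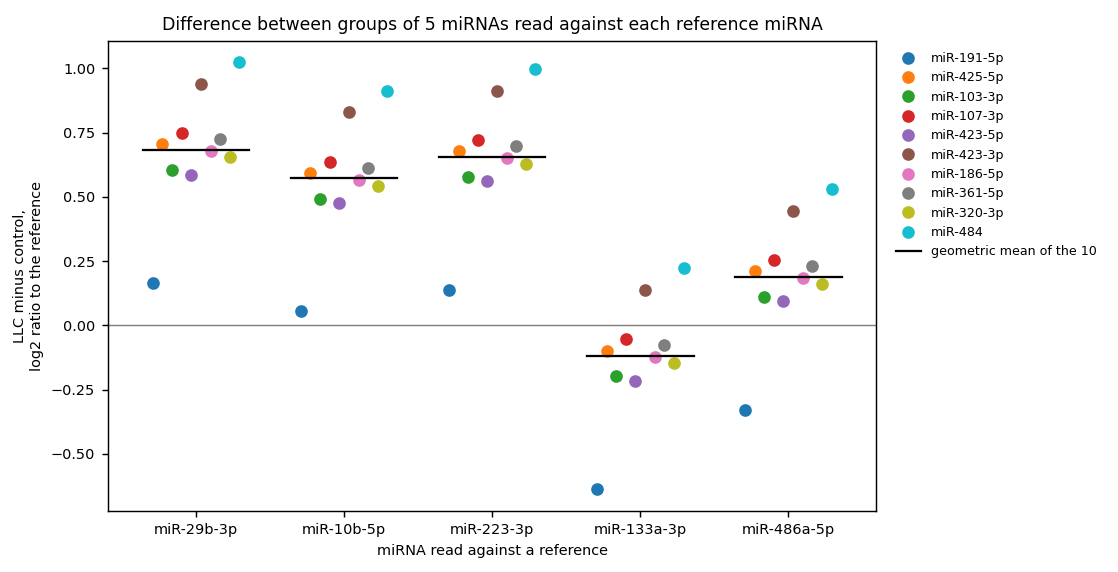
Difference between the groups (vertical axis, LLC minus control, in mean log2 ratio of counts) for 5 miRNAs read against each of the 10 references (colored points); the black line is the difference against the geometric mean of the 10. The blue points of miR-191-5p are the lowest for all 5 miRNAs and those of miR-484 the highest, 0.17 and 1.02 for miR-29b-3p.

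A list of 10 other miRNAs used as references was examined in the same fit (let-7a-5p, miR-16-5p, miR-26a-5p, miR-93-5p, miR-24-3p, miR-25-3p, miR-92a-3p, miR-152-3p, miR-345-5p and miR-30e-5p). By edgeR, 0 of the 10 were called, 1 passed an unadjusted p of 0.05 (miR-345-5p, log2-fold change -0.44, standard error 0.196, adjusted p = 0.293), and 5 had a higher and 5 a lower mean. Their SD of log2 CPM after TMM scaling was 0.14 to 0.32, with a median of 0.18, beside 0.17 for the 10 described here. let-7a-5p, which represses Ras and cell-cycle mRNAs, averaged 3611 ± 259 CPM in control mice and 4140 ± 282 CPM in LLC mice (SD, n = 4 and n = 5), with every LLC mouse above every control mouse after TMM scaling, where 1 of this list and 5.92% of the expressed miRNAs did not overlap. Under library totals the groups overlapped for let-7a-5p and for the other 9 of the list. Its log2-fold change was small, 0.20 (SE 0.107, adjusted p of 0.326 by edgeR). miR-26a-5p, at 56513 ± 1657 CPM and 48897 ± 6763 CPM, was the most abundant of this list.

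The other arms of the members' hairpins were scarce. Of 8 such arms, 2 were expressed. miR-361-3p had 180 to 442 counts per library with a log2-fold change of -0.11 (SE 0.142, adjusted p of 0.680 by edgeR). miR-191-3p had 23 to 43 counts per library, 5.79 ± 1.20 CPM in control mice and 4.71 ± 1.03 CPM in LLC mice (SD, n = 4 and n = 5), with a log2-fold change of -0.29 (SE 0.238, adjusted p of 0.505 by edgeR). The 3p arm of Mir191 was thus lower on average in the LLC group while the 5p arm was higher on average, and neither difference passed the test. The remaining 6 arms had at most 16 counts in any library.

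Markers of other cell types were read beside the references, because a muscle sample also holds blood, vessel and connective tissue cells. Of the 6 muscle-fibre miRNAs, 5 were expressed, all 5 with a lower mean in the LLC group, none called by edgeR and 0 at an unadjusted p up to 0.05, at a summed 24970 ± 4094 CPM and 22930 ± 1629 CPM after TMM scaling (SD, n = 4 and n = 5). miR-133a-3p supplied most of this sum. miR-1a-3p, a defining muscle miRNA, had only 62 to 171 counts per library, and miR-206-3p had 0 to 3. Of the markers that define muscle, miR-133a-3p and miR-133b-3p therefore had many counts in every library, and miR-1a-3p and miR-206-3p had few. miR-1a-3p averaged 19.0 CPM after TMM scaling, beside 22.5 CPM for miR-1a-1-5p, an arm on the other side of a miR-1a hairpin. Whether the low count of miR-1a-3p comes from the muscle or from library building and mapping was not tested, so it does not show that miR-1a-3p is scarce there.

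The 3 erythroid miRNAs were lower in the LLC group at a median log2-fold change of -0.76, 3 of 3 at an unadjusted p up to 0.05 and 0 of 3 called by edgeR. Their sum, mostly miR-451a, was 325, 267, 228 and 215 CPM in the control mice and 92.4, 189, 220, 110 and 150 CPM in the LLC mice, lowest in L1 and L5, the mice in which miR-484 and miR-423-3p were also lowest. Whether blood left in the muscle plays a part in the level of those references was not tested. The 5 leukocyte miRNAs, mostly miR-150-5p, summed to 764 ± 49.7 CPM and 671 ± 62.2 CPM, with 4 of 5 higher in the LLC group by log2-fold change, none called and 2 at an unadjusted p up to 0.05.

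The endothelial sum, mostly miR-126a-5p, was 29586 ± 3392 CPM against 27458 ± 2220 CPM. The fibroblast sum, mostly miR-199a-3p, was 2132 ± 213 CPM against 2197 ± 628 CPM and was highest in L5, at 3300.3 CPM. The smooth-muscle sum, mostly miR-143-3p, was 54997 ± 6957 CPM against 69091 ± 16207 CPM. None of the miRNAs of these 3 lists was called, with 1 of 2 endothelial, 1 of 3 fibroblast and 0 of 2 smooth-muscle miRNAs at an unadjusted p up to 0.05 in the edgeR test. miR-9-5p of nervous tissue was at 5.25 ± 1.33 CPM against 5.02 ± 1.67 CPM, and miR-124-3p, which defines neurons, had 0 to 4 counts per library. The liver miRNA miR-122-5p had 0 or 1 count in each library, where a count of 0 in a library allows up to 3 counts, a limit that covers counting error only. The part of these cell types in the spread of the references was not tested.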

How the data were processed

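TA muscle from 4 control and 5 LLC mice had been profiled by small RNA sequencing. The authors built the libraries with the TruSeq Small RNA kit from 1000 ng of RNA (RIN above 8), sequenced 50-bp single-end reads in one lane and mapped the reads with Bowtie to miRBase version 21 with 0 mismatches in a seed of 8 bases, all best alignments kept. The deposited values are raw whole counts per mature miRNA, 1 table per library. Quality filtering, trimming and mapping were not repeated.

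The 10 members and the lists of other miRNAs were chosen with earlier results of these data known. The named miRNAs are the members, the other arms of their hairpins, 10 other reference miRNAs, the 5 nearest to the members' geometric mean, the 5 nearest to miR-191-5p (chosen after its values were seen), 5 miRNAs read against the members, and cell type markers. Groups came from the sample labels.

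The test was the quasi-likelihood F test of edgeR 4.0.16 under R 4.3.3, with TMM factors and Benjamini-Hochberg adjustment over 304 miRNAs. Library sizes were totals over all miRNAs. Log2 CPM used a prior count of 2, and ratios of counts an added 0.5. Intervals of fold changes are 95% intervals from edgeR's standard error and degrees of freedom. Permutation tests were exact, two-sided, over all splits of the 9 mice. Alternatives were other scalings, filters, DESeq2 1.42.0, limma 3.58.1 with voom, a replicate block and leaving out each mouse. Pairs of libraries within a group differed beyond sampling noise (lowest chi-square per degree of freedom 124). Total counts were 4992339 to 7833161 per library. Counting SDs of log2 counts were taken as Poisson, averaged as variances over the 9 libraries. The reads carry no molecular identifiers, so limits drawn from counts cover counting error only. Hairpin positions came from GENCODE on GRCm38 and sequences from RefSeq on GRCm38.p6. Python 3.11.15, scipy 1.17.1 and matplotlib 3.10.9 were used.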

Additional observations from a re-analysis of the deposited data

Results flagged for a closer look

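In 40 groups of 4 or 5 mice (10 members, both groups, both scalings), Dixon's test at its 95% critical value set 0 single mice apart from the rest, where chance sets apart about 1 in 20 groups. L5, though the extreme mouse for several members, did not pass it for any of the 10.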

How the results depend on the processing

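The number of members called was 0 under all alternatives except no filter, which called 1 (miR-191-5p) with 6524 degrees of freedom, beside 15.2 in the main fit. Over all miRNAs tested, no filter called 22 and DESeq2 called 7. Leaving out 1 mouse gave 0 to 8 calls, with 1 without L1 and 8 without L3. The cause was not tested. With the replicate block, a paired fit on the numbers that C1 to C3 share with L1 to L3, 0 members and 0 miRNAs were called. These are different mice and the numbers did not pair them, since the deviations of same-numbered mice had correlations of -0.23, -0.09 and -0.25. The members' geometric mean moved from 0.01 to -0.14 under library totals, 0.054 with RLE factors and -0.045 without miR-191-5p, and stayed between -0.0028 and 0.025 with 1 mouse left out. Of the 45 ratio pairs, 0 or 1 passed an exact permutation p of 0.05 with 1 mouse left out, miR-103-3p to miR-107-3p without L3 and miR-425-5p to miR-423-3p without L6 (each p = 0.0286, adjusted p = 0.514 and 0.386). Without L5 the within-group SD of miR-425-5p fell from 0.17 to 0.09 and that of miR-320-3p from 0.13 to 0.09.

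Members with log2-fold changes near 0 changed sign, the cause of which was not tested. miR-425-5p (-0.0011) was at 0.040 with RLE factors, 0.12 with upper-quartile factors, 0.043 with no filter, 0.016 with 10 counts in every library, 0.055 with filterByExpr, 0.040 with DESeq2, 0.051 with the replicate block, 0.043 scaled by the 9 members without miR-191-5p and -0.044 to 0.075 with 1 mouse left out. miR-361-5p (-0.023) was at 0.017, 0.10, 0.013, 0.027 and 0.017 with RLE, upper-quartile, no filter, filterByExpr and DESeq2, 0.080 with the replicate block, 0.015 with the 9 members and -0.084 to 0.062 with 1 mouse left out. miR-107-3p (-0.052) was at 0.065 with upper-quartile factors, 0.0033 with filterByExpr and -0.10 to 0.0019 with 1 mouse left out. Under library totals miR-103-3p, miR-423-5p, miR-186-5p and miR-320-3p were at -0.051, -0.050, -0.13 and -0.11, and with the replicate block miR-423-5p and miR-320-3p were at -0.042 and -0.027. With 1 mouse left out, miR-186-5p lay between -0.031 and 0.11 and miR-320-3p between -0.023 and 0.10. In log2 CPM, library totals gave -0.064, -0.047, -0.14 and -0.11 for miR-103-3p, miR-423-5p, miR-186-5p and miR-320-3p, and RLE gave 0.032 and 0.013 for miR-425-5p and miR-361-5p. miR-191-5p stayed higher and miR-423-3p and miR-484 stayed lower under every alternative.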
